A study of Mus musculus with 12 samples.

Results

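Granzymes are serine proteases that cytotoxic lymphocytes pack into granules, and perforin is the pore-forming protein that lets them into a target cell. The 10 genes described here are perforin (Prf1) and the granzymes Gzma, Gzmb, Gzmc, Gzmd, Gzme, Gzmf, Gzmg, Gzmn and Gzmk, and each was found once among the 32285 genes of the deposited matrices. They were chosen from earlier fold changes between Mif knockout and control tumours in T-cell-like cells of these same data. The knockout-minus-control values below are therefore a description and carry no test. Granzyme A is a trypsin-like protease, granzyme B cleaves after aspartate and activates caspases, and granzyme K is known from memory and early effector CD8 T cells. Granzymes C to G belong to an expansion of the granzyme B locus in rodents, and they are known from natural killer (NK) cells and T cells kept under prolonged stimulation. NK cells and CD8 T cells are the main granzyme-bearing lymphocytes of tumours, while regulatory T cells can carry granzyme B as part of their suppressive activity.

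The tumours came from a series on the rejection of melanoma and were grown from mouse lines named SCC35. The groups were 2 control lines (SCC35 Mif KO control 15 and 18) and 2 lines with a knockout of Mif (SCC35 Mif KO 19 and 24) (KO). The labels put the knockout in the tumour line and name none in the host. Mif codes for a cytokine that restrains the migration of macrophages. The labels used here give neither the host strain, age or sex nor whether a line is 1 clone, and they do not say that tumours came from separate animals, so the p-values measure only the spread between these samples. The labels speak of tumours and do not say whether the samples of day 0 were cultured cells or tissue. Tumours were dissociated, marked with hashtag antibodies that carry a DNA barcode, sorted for live cells and read with a 10x 5′ kit at days 0, 6, 10 and 16. After hashtags were assigned there were 21 control samples, 21 KO samples and 3 wild-type (WT) samples that the labels put in no group.

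The 6 libraries held 151385933 to 239699029 unique molecular identifiers (UMIs, each counting 1 captured RNA molecule) and gave 100459 single cells. Of 94833 distinct barcodes, 5468 (5.77%) occurred in 2 or more libraries. In Ptprc-negative cells, which lack the pan-leukocyte gene, Mif stood at 1724 to 3130 CPM, the counts of a gene scaled to a fixed total of gene UMIs in the same cells, the unit of every level below, in the control samples and 45.5 to 761 in the KO samples. Of the libraries, 4 held 1 line each and 2 held several lines, so line and library cannot be told apart in the former, and lines are nested in the groups. Values within the mixed libraries are given for the main comparisons.

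Cells were gated on raw UMIs of genes that are no member, WT cells included. CD8 T cells (1239) had Cd3e and Cd8a or Cd8b1, CD4 T cells (596) had Cd3e and Cd4, regulatory T cells (189) had Cd3e and Foxp3, and NK cells (447) had no Cd3 chain and at least 2 UMIs of Ncr1, Klrb1c and Klre1. Of the T-cell checks, the receptor gene Trac was found in 36.9% of KO and 25.1% of control CD8 T cells, against 4.64% and 2.04% of NK cells. The NK receptor gene Klra8 was found in 24.3% and 26.5% of NK cells, against 0.107% and 0% of CD8 T cells. The other checks were shared. The 4 T-cell checks summed to a median of 413 CPM in control and 305 in KO NK sums, with Lck in 57.1% and 32.5% of NK cells, and the 4 NK checks to 453 and 346 in CD8 T sums, with Klrd1 in 40.4% and 41.4% of CD8 T cells. In NK sums the markers of dendritic cells, neutrophils and B cells were at 0, the 3 innate lymphoid genes summed to 37.0 to 121 in control and 21.0 to 207 in KO tumours, the gamma-delta genes to 0 to 22.3 and 0 to 35.8, and the mast cell and basophil genes to 0 to 11.2 and 0 to 17.9. Their part in the results was not tested. Only 4 CD8 T cells, 1 regulatory T cell and 1 NK cell came from day 0, so all comparisons of tumour sums in these classes concern days 6, 10 and 16. Counts over single cells include them.

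Of the members, 7 lie in a cluster of 144.6 kb on chromosome 14 (chr14:56117626-56262260, GRCm38), all on the minus strand, in the map order Gzme, Gzmd, Gzmg, Gzmn, Gzmf, Gzmc and Gzmb. Gzma (chr13:113093825-113100981) and Gzmk (chr13:113171608-113225908) are near neighbours on chromosome 13, and Prf1 lies on chromosome 10 (chr10:61297833-61304680). The stretches just upstream of the 7 clustered genes are shown because several of these genes were found together in the same cells. Each is the sequence from 250 to 21 bases before the RefSeq start site (230 bases, GRCm38.p6, from RefSeq, minus strand, written 5′ to 3′). Capitals mark matches to the RUNX core TGTGGT or its reverse complement ACCACA and to the AP-1 motif TGANTCA. They are given in the order Gzmb, Gzmc, Gzmd, Gzme, Gzmf, Gzmg and Gzmn.
Gzmb (chr14:56262355-56262584): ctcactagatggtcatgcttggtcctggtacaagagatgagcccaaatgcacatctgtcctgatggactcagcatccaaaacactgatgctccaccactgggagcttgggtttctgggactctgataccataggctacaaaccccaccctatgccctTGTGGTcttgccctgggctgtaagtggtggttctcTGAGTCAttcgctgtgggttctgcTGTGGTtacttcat
Gzmc (chr14:56234678-56234907): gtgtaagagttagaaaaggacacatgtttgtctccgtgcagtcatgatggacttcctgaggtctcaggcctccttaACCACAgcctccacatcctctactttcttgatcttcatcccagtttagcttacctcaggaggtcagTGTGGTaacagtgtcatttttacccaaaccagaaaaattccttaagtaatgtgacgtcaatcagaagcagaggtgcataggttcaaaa
Gzmd (chr14:56132614-56132843): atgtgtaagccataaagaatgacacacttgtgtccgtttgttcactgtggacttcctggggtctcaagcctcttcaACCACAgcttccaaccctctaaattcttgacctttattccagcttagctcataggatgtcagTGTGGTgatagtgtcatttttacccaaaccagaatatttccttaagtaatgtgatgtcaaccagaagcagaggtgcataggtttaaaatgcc
Gzme (chr14:56120646-56120875): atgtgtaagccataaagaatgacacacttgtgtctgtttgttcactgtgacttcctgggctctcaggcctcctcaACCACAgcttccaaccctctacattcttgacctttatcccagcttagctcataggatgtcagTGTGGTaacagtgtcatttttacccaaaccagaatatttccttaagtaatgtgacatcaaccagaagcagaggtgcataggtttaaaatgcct
Gzmf (chr14:56211428-56211657): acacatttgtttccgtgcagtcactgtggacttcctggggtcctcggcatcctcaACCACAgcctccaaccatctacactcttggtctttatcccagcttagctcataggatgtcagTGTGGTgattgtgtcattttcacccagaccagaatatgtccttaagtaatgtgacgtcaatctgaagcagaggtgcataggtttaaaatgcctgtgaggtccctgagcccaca
Gzmg (chr14:56159600-56159829): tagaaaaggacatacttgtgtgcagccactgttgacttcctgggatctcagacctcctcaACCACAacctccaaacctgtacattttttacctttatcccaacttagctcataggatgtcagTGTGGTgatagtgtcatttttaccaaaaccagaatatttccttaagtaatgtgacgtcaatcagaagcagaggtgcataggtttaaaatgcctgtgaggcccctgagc
Gzmn (chr14:56174620-56174849): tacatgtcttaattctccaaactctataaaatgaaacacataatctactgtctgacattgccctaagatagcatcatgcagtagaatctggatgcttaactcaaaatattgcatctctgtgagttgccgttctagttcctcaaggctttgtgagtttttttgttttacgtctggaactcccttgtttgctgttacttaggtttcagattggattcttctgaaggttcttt

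The windows of Gzmc, Gzmd, Gzme, Gzmf and Gzmg each held a reverse and then a forward RUNX core, 62 bases apart in Gzmd, Gzme, Gzmf and Gzmg and 66 bases apart in Gzmc. The Gzmb window held 2 forward matches 59 bases apart, with the only AP-1 match (TGAGTCA) among the members between them. The Gzmn window held none of the motifs searched. A window with at least 2 RUNX cores was found for 6 of the 10 members and in 1.12% of 32851 RefSeq promoters, and at least 1 core in 13.2%. Both strands were searched, also for the T-box motif GGTGTG (Gzmk alone, and 15.2% of promoters) and the STAT motif TTCNNNGAA (no member, and 6.48% of promoters). The AP-1 motif was found in 6.34% of promoters. No matches of different motifs overlapped in these windows, and a match describes letters, not binding. The Gzmd and Gzme windows were 94.8% identical over their alignment, and the windows of Gzmd, Gzme, Gzmf and Gzmg were 73.4% to 94.8% identical by pairs. Against the windows of Gzmc to Gzmg, that of Gzmb was 47.1% to 51.9% and that of Gzmn 50% to 52.4% identical. The window of Gzma, on chromosome 13, was 48.6% to 51.9% identical to the same windows, and 50% to that of Gzmb. The coding sequences of Gzmb and Gzmn were 67.4% to 76.6% and 71.3% to 83.3% identical to those of Gzmc to Gzmg.

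Reads of such close copies could be split between genes by the counting. The coding sequences of Gzmd and Gzme were 93.5% identical. Of 667 stretches of 90 bases of the Gzmd coding sequence, 7 (1.05%) occurred letter for letter in that of Gzme. Gzme shared 1 such stretch with Gzmg, and no other pair of members shared one in the coding sequence. The untranslated ends were not searched. By coding sequence, values of Gzmd and Gzme are the most uncertain in how they divide. UMIs were counted at the 5′ end and are not divided by transcript length, so they are compared here mainly between cells for the same gene.

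The members differed in which cells held them. Over control and KO cells, NK cells carried 1253 of 2041 Gzmd UMIs (61.4%), 58.2% of Gzmc, 64.2% of Gzmf and 55.1% of Gzmg. These pooled shares follow the controls, which held most of the UMIs. In KO cells the NK share was 26.4% for Gzmd, 41.9% for Gzmc, 22.7% for Gzmf and 7.84% for Gzmg, and Ptprc-negative cells held more than NK cells of Gzmd (39.2%), Gzmf (28.1%) and Gzmg (64.7% of 51 UMIs). These were 58 Gzmd UMIs in 52, 36 of Gzmf in 36 and 33 of Gzmg in 32 of 31735 cells. Cells with 1 NK-gene UMI and no Cd3 chain, 108 control and 363 KO, lay outside the NK gate. They held 11.6% of control and 21.6% of KO Gzma, 13.1% and 18.7% of Gzmc, and 16.5% and 0% of Gzmf. The part of the gate in the shares was not tested. The NK share of Prf1 was 59.4% in control and 37.0% in KO cells, that of Gzma 59.7% and 36.4%, and that of Gzmb 26.0% and 17.4%. CD8 T cells held 64.0% of the 75 control and 46.8% of the 423 KO Gzmk UMIs, and 11.7% and 21.4% of Gzmb. Of Gzmd they held 0.211% in control and 1.35% in KO cells (4 and 2 UMIs), and of Gzmc 0.111% and 0.874%. Gzme was divided otherwise, with 36.2% of its 1294 control UMIs in NK cells and 40.1% in Ptprc-negative cells, against 18.9% and 37.9% of the 132 KO UMIs. Gzmn gave 1 UMI in all cells together, and no level is given for it.

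**Figure D1:**
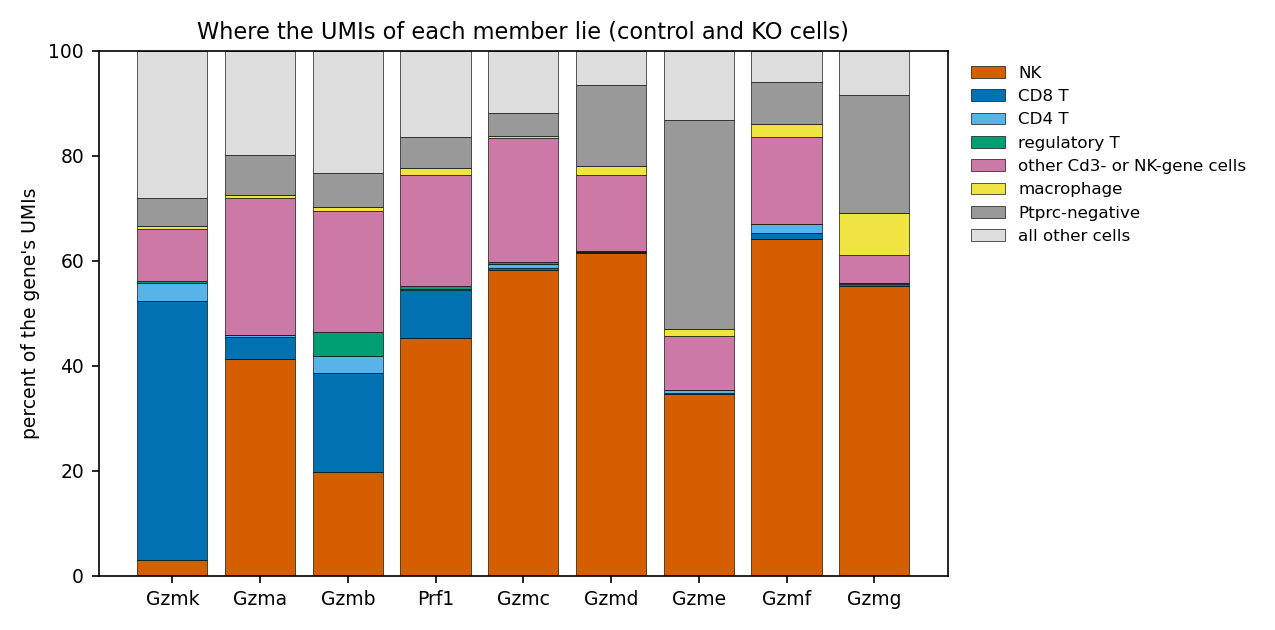
Share of each member's UMIs (percent, y axis) in the gated classes over all control and KO cells, 1 stacked bar per gene, without Gzmn. The orange NK segment makes up more than 50% of the bars of Gzmc, Gzmd, Gzmf and Gzmg, the dark blue CD8 T segment is tallest for Gzmk at 49.4%, and the grey Ptprc-negative segment is tallest for Gzme at 39.9%.

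Summed over tumours with at least 10 gated cells, Gzmc stood at 8392 CPM in the NK cells of 5 control and 1866 in those of 11 KO tumours, and at 14.9 in CD8 T cells (23 tumours). Gzmd stood at 1652 in control and 37.3 in KO NK cells, at 1.94 in CD8 T cells and at 0.730 in CD4 T cells. Without the day 10 tumour of line 18, the control NK value of Gzmd was 841. Without day 6 tumour A of line 19, the KO value was 18.25. In CD8 T cells Gzmd lay near the background of free RNA. A Gzmd UMI was found in 1.17% of control and 0.213% of KO CD8 T cells, against 0.544% and 0.0271% of macrophages, which should lack the gene. Gzmc was found in 3.51% and 3.09% of CD8 T cells, against 0.641% and 0.217% of macrophages. Gzmb stood further off, with a UMI in 57.3% of control and 52.6% of KO CD8 T cells (median depth 1793 and 2042 UMIs) against 0.368% and 1.35% of macrophages (median depth 3238 and 2429 UMIs).

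**Figure D2:**
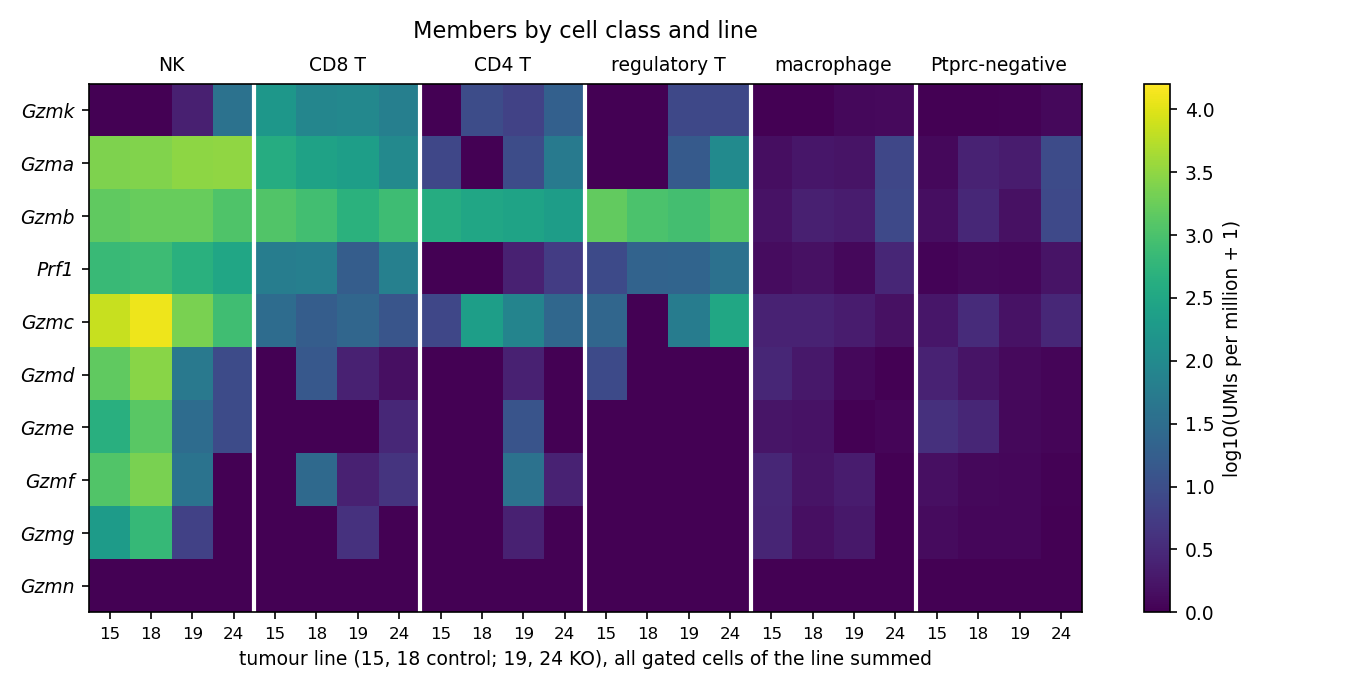
Level of each member (log10 of CPM plus 1, colour scale) in each cell class (blocks) and tumour line (columns, lines 15 and 18 control, lines 19 and 24 KO), with all gated cells of a line summed. In the NK block Gzmc is bright in all 4 lines, and Gzmd to Gzmg are bright in lines 15 and 18 and dim in lines 19 and 24, with Gzmf and Gzmg at 0 in line 24, while Gzmb is bright in NK, CD8 T and regulatory T cells of all 4 lines.

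Gzma was far higher in NK than in CD8 T cells, and Gzmb did not pass over all tumours. Both classes of the same tumours were compared in edgeR's quasi-likelihood test with the tumour as a block (13 NK and 19 CD8 T sums). The NK sums came from all 11 KO tumours with at least 10 NK cells. Of the controls, only day 16 tumour A of line 15 and day 16 tumour C of line 18 gave an NK sum here. Gzma and Gzmb also met the rule of the low-count filter in CD8 T sums alone, so their entry did not depend on the NK level. Gzma was higher in NK cells by 4.33 on the log2 scale (SE 0.38, adjusted p = 1.14e-11 in edgeR), at 2809 ± 1637 (SD, n = 13) against 162 ± 209 (SD, n = 19). Gzmb, at 1140 ± 598 in NK cells and 623 ± 377 in CD8 T cells, differed by 0.82 (SE 0.29, adjusted p = 0.0824 in edgeR) and did not pass. In the mixed libraries alone Gzma was higher by 4.71 (adjusted p = 5.77e-05 in edgeR), and Gzmb was called higher too, by 1.43 (adjusted p = 0.00975 in edgeR).

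The other members are given as values. Prf1 stood at 412 ± 226 (SD, n = 13) in NK cells and at 40.2 ± 44.4 (SD, n = 19) in CD8 T cells, where 3 sums were at 0. Gzmc gave 3187 UMIs in the NK sums and 45 in the CD8 T sums, with 8 of 19 at 0. Gzmd gave 238 against 6, Gzmf 153 against 15 and Gzme 72 against 4 UMIs. Nearly all CD8 T sums were at 0 for these 3 (16, 15 and 17 of 19), as were 5, 8 and 5 of the 13 NK sums, all of KO tumours. Gzmk ran the other way, with 15 UMIs in the NK sums and 213 in the CD8 T sums. In all 6 of the 8 members that passed the filter were called higher in NK cells, beside 4.47% of 2237 genes, but Gzmd, Gzme, Gzmf and Prf1 met the filter in NK sums alone, and Gzmc in NK and CD4 T sums alone, and nothing is read from that count. DESeq2 called 4 members, without Gzmd, Gzme and Gzmf, and with Gzmk.

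Between the groups, NK cells differed most in Gzmc, Gzmd, Gzme and Gzmf among the 7 members tested. Gzmd stood at a CPM of 55.9 and 648 in the day 6 tumours of control line 15, at 1406 in its day 16 tumour, and at 5450 and 1664 in the day 10 and day 16 tumours of control line 18. The 11 KO tumours ranged from 0 to 168 with a median of 8.39, and 5 of them were at 0. The control tumour of 55.9 fell within the KO range, and the other 4 lay above it. The fitted KO-minus-control difference was -5.08 on the log2 scale (SE 0.64, n = 11 and 5).

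Gzmc, whose coding sequence is closer to that of Gzmb than those of its other neighbours are, stood at 3270, 5408 and 2380 in the 3 tumours of line 15 and at 15520 and 13920 in those of line 18. The KO tumours ranged from 22.8 to 2844 with a median of 1050. Again 4 of 5 control tumours lay above all KO tumours. Within the KO lines Gzmc was at 1050 to 2844 in the 5 tumours of line 19 and at 22.8 to 1325 in the 6 of line 24. The difference was -2.70 (SE 0.54).

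Gzme and Gzmf likewise lay above all KO tumours in 4 of 5 control tumours. Gzme stood at 28.0, 463, 514, 3059 and 346 in the control tumours, in the same order, against 0 to 118 in the KO tumours. Gzmf stood at 0, 315, 2218, 4458 and 469 against 0 to 64.1. Gzmg was at 0, 0, 1082, 1806 and 44.7, and in 1 of 11 KO tumours at 14.2, and it did not pass the filter of this fit. The fitted differences were -4.73 (SE 0.67) for Gzme and -5.02 (SE 0.82) for Gzmf.

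The core cytotoxic genes overlapped between the groups in NK cells. Prf1 was at 472 to 927 in control tumours (median 624) and at 81.3 to 662 in KO tumours (median 320), a difference of -0.85 (SE 0.28). Gzmb, at medians of 1653 and 1021, differed by -0.46 (SE 0.28), and Gzma, at medians of 2033 and 3353, by 0.37 (SE 0.41). In all, 4 of the 7 members tested were called lower in KO tumours (Gzmc, Gzmd, Gzme and Gzmf), beside 1.3% of the 1080 genes tested. Since the members were picked from the same contrast, nothing is read from this count.

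**Figure D3:**
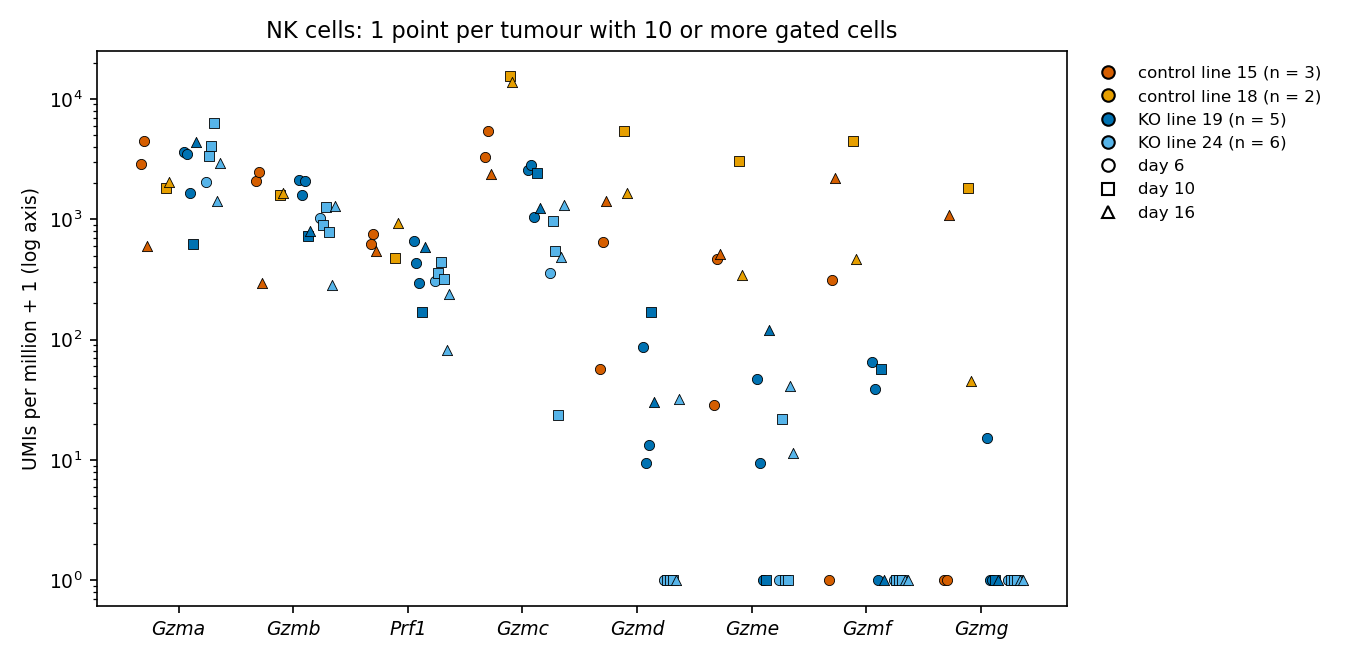
NK cells, CPM plus 1 (log y axis) for 8 members (x axis), 1 point per tumour with at least 10 gated NK cells, coloured by line and shaped by day. Control points (orange) and KO points (blue) mix for Gzma and Gzmb, while for Gzmd 4 of 5 control points lie above all 11 KO points.

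Both mixed libraries showed the same order for Gzmc and Gzmd. In the first, Gzmd was at 648 (line 15) and 1664 (line 18) in the control tumours and at 12.4 in the tumour of line 19. In the second it was at 5450 (line 18) against 0 and 31.0 (line 24). Gzmc was at 5408 and 13920 against 1050 in the first and at 15520 against 22.8 and 1325 in the second. Within the mixed libraries the fitted difference was -6.64 for Gzmd, -3.79 for Gzmc, -7.14 for Gzme, -9.39 for Gzmf, -1.35 for Prf1, -0.49 for Gzmb and 0.33 for Gzma. Gzmf was at 0 in all 3 KO tumours there and Gzme in 2, and Gzmd gave 1, 0 and 3 UMIs in them. The size of these 3 differences therefore rests on few UMIs. Without line 18, with the stricter gate and with at least 20 cells a tumour no member was called, and without line 24 only 1 was. The number called over all genes also moved between settings, and nothing is read from these counts. Other measures moved with the groups. Ncr1, the activating receptor NKp46 and part of the gate, was found in 74.8% of control and 43.6% of KO NK cells, and the median depth was 3294 and 2257 UMIs per cell. The 4 NK checks that the gate did not use were all detected in both groups, with a summed level of 717 to 1262 in control and 655 to 1393 in KO tumours. The 6 macrophage markers were all detected, at 16.3 to 741 and 0 to 853. The part of these in the difference was not tested.

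In single NK cells Gzmd was concentrated in a few cells. A Gzmd UMI was found in 32 of 147 control and 9 of 280 KO cells. With every cell thinned to 1000 UMIs (3 control and 15 KO cells were shallower and left out), the shares were 19.4% (Wilson 95% interval 13.8 to 26.7%) and 2.26% (1.04 to 4.85%). The interval covers counting error only, and cells of a tumour are not replicates. The 15 control cells highest in Gzmd held 84.7% of its UMIs, and 1 cell of line 15 at day 10 held 235. In the control tumours of line 15, the 55.9, 648 and 1406 CPM rested on 2, 2 and 1 cells, and in line 18 the values rested on 7 of 13 and 6 of 25 cells.

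Gzmc, Gzmd and Gzme were found in the same cells. Of the 32 control NK cells with Gzmd, 31 also had Gzmc, 30 had Gzme, 17 Gzmf and 14 Gzmg, and 28 had Prf1. Of the 147 control cells, 105 had none of Gzmd, Gzme, Gzmf and Gzmg, and 10 had all 4. Of the 280 KO cells, 264 had none and 1 had all 4. Gzmc reached further than Gzmd to Gzmg, with a UMI in 66.7% of control and 36.1% of KO cells (61.8% and 30.9% after thinning). The control cells with Gzmd were deeper (median 4862 UMIs) than those without (2849).

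Cells with and without Gzmd are split here by a member, so their other genes are given as values only. Gzmc was at 18440 CPM in the 32 control cells with Gzmd and at 5089 in the 115 without. The chemokine gene Ccl5 was at 16.5 and 1104, and Ccl4 at 32.9 and 508. The genes of the Cd3 chains were absent from both by the gate. The 2 chemokines were named after their values were seen.

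CD8 T cells carried mainly Gzmb, with Gzma, Gzmk and Prf1 at lower levels. Over the 6 control tumours Gzmb ranged from 374 to 1496 CPM with a median of 948, and over the 17 KO tumours from 31.6 to 1122 with a median of 462. The groups overlapped. The fitted difference was -0.69 (SE 0.37). For Gzma the control tumours ranged from 0 to 764 (median 247) and the KO tumours from 29.0 to 500 (median 82.7), a difference of -1.20 (SE 0.56). Only Gzma and Gzmb passed the filter in this fit and neither was called in edgeR or DESeq2, beside 1.8% of 1610 genes called in edgeR. An unadjusted p under 0.05 in edgeR was found for 1 of them, beside 243 of the 1610 genes.

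Gzmk and Prf1 did not pass the filter of that fit. Gzmk was at 0 to 307 in control tumours (median 92.5) and at 0 to 481 in KO tumours (median 49.5). Prf1 was at 17.0 to 130 (median 85.1) and at 0 to 114 (median 24.7). In the first mixed library, the control tumours of lines 15 and 18 had Gzmb at 716 and 458 and the tumours of line 19 at 697, 314 and 31.6. In that library Gzma was at 552 and 0 in the control tumours and at 491, 64.9 and 47.3 in those of line 19, Gzmk at 307 and 17.0 against 0, 43.3 and 63.1, and Prf1 at 102 and 17.0 against 0, 32.5 and 0. Control and KO tumours overlapped for each of these. No control CD8 T sum of at least 10 cells came from the second mixed library. By line, all CD8 T cells summed, Prf1 stood at 58.3, 63.2 and 66.4 in lines 15, 18 and 24 and at 16.2 in line 19. These groups were not tested for Prf1, which did not pass the filter between lines either.

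Over time Gzma had the smallest unadjusted p of the 4 members tested in CD8 T cells. It was at 0 to 144 CPM in the 9 tumours of day 16 (median 47.3) and at 63.2 ± 55.8 (SD, n = 9), against 313 ± 216 (SD, n = 6) at day 6. With line as a term the day 16 minus day 6 difference was -1.68 (SE 0.59, adjusted p = 0.436 in edgeR), which did not pass. Gzmb differed by -0.50 (SE 0.41) and Gzmk by 0.15 (SE 0.62), and Gzmf, at 0 in all 6 tumours of day 6, gave 16 UMIs at day 16. None of the 4 members tested was called in edgeR and 0 in DESeq2, and 0% of 3045 genes were in edgeR. An unadjusted p under 0.05 in edgeR was found for 1 of them, beside 250 of the 3045 genes. With no filter on low counts, and without line 24, Gzma was called lower at day 16.

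**Figure D4:**
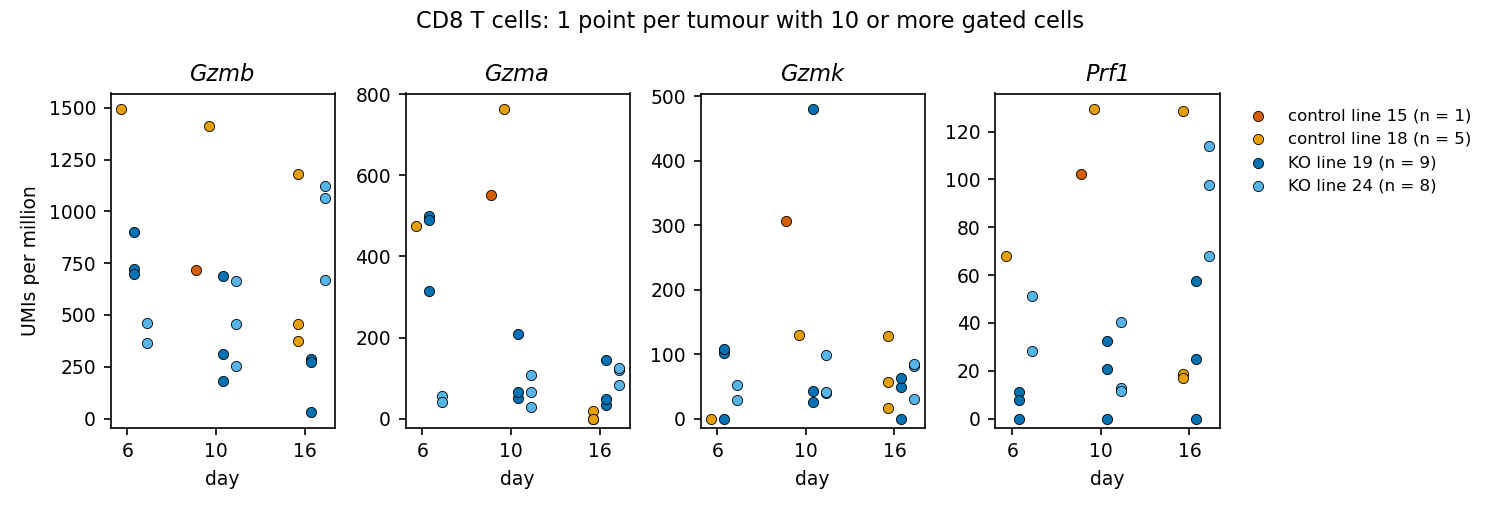
CD8 T cells, CPM (y axis) of Gzmb, Gzma, Gzmk and Prf1 by day (x axis), 1 point per tumour with at least 10 gated cells, coloured by line. Gzma lies at or below 144 in all 9 tumours of day 16, and the colours overlap in all 4 panels.

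The course over days is given by group as a description, since it too sets KO against control. The fitted slope of Gzma was 0.38 higher in KO than in control tumours on the log2 scale per day (SE 0.15), and that of Gzmb 0.09 higher (SE 0.10). Of all genes 0% were called in edgeR for the course, and nothing is read from the members' count of 0 (0 in DESeq2). An unadjusted p under 0.05 in edgeR was found for 1 member there, beside 249 of 3045 genes. Between the KO lines (24 minus 19) 0 of 4 members were called in edgeR and 0 in DESeq2, beside 0.69% of all genes in edgeR. In that fit 0 members had an unadjusted p under 0.05 in edgeR, beside 328 of 3045 genes. Between the control lines line 15 rested on 1 tumour, for which the fit borrows the spread of the other lines, so nothing is read from the absence of calls there (0% of all genes). That tumour had Gzmb at 716, within the 374 to 1496 of the 5 tumours of line 18, and Gzmk at 307, above their 0 to 129.5. Gzmb differed by 0.69 between lines 24 and 19 (SE 0.37, adjusted p = 0.532 in edgeR).

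In NK cells the days also overlapped, by less for Gzmb. Gzmb was at 284 to 1653 (median 799) in the 5 tumours of day 16 and at 1021 to 2482 (median 2088) in the 6 of day 6, and 4 of these 6 lay above all tumours of day 16. The difference was -1.28 (SE 0.39, adjusted p = 0.166 in edgeR). Gzmg differed by 4.54 (SE 1.27, adjusted p = 0.166 in edgeR), with 3 of 5 tumours at 0 on day 16 and 5 of 6 at 0 on day 6. Neither passed, and of the 8 members tested 0 were called in edgeR (0% of 1248 genes) and 1 in DESeq2. An unadjusted p under 0.05 in edgeR was found for 3 of them, beside 147 of the 1248 genes. Perforin differed by -0.13 (SE 0.37).

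CD4 T cells held less Gzmb than CD8 T cells of the same tumours (14 CD4 T and 19 CD8 T sums, edgeR with the tumour as a block). Gzmb was lower by 1.46 on the log2 scale (SE 0.31, adjusted p = 0.000706 in edgeR), at 244 ± 318 (SD, n = 14) against 623 ± 377 (SD, n = 19). It met the filter in CD4 T sums alone, so its entry did not depend on the CD8 T level. Gzma, Prf1 and Gzmk did not pass it in CD4 T sums alone and are given as values. Gzma was at 0 in 9 of the 14 CD4 T sums, with a fitted difference of -2.59 (SE 0.55) whose call carries no weight. Prf1 gave 3 UMIs against 163 and Gzmk 16 against 213. Of the 8 members that passed in the joint fit 4 were called lower, beside 6.03% of all genes, and nothing is read from that count. In the mixed libraries alone none of them was called, and Gzma and Gzmb differed by -0.78 and -1.17 (adjusted p = 0.828 and 0.129 in edgeR).

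The Gzmb of CD4 T cells was at 102, 365 and 532 CPM in the 3 control tumours and at 34.7 to 1236 in the 12 KO tumours. The control range lay within that of the KO tumours. The fitted KO-minus-control difference was -0.69 (SE 0.52). None of the 4 members tested was called in edgeR and 0 in DESeq2, and 0% of 2372 genes were in edgeR. An unadjusted p under 0.05 in edgeR was found for 0 of them, beside 208 of the 2372 genes. Gzma and Gzmf were at 0 in all 3 control tumours.

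Regulatory T cells carried Gzmb far above the other members. It stood at 1311, 718 and 522 CPM in the 3 control tumours, all of day 16, and at 1414 and 2386 in the 2 KO tumours, both of line 24 at day 10. Group and day cannot be told apart in these 5 tumours, and no fit was made. Tumours with fewer than 10 such cells stayed outside the sums. Among them the 4 control tumours of day 10 (2 to 6 cells) had Gzmb at 3329, 8436, 654 and 2571, and the 4 KO tumours of day 10 (6 to 9 cells) at 641, 2940, 739 and 251. At day 16 the 3 control tumours (1 to 9 cells) had it at 0, 1666 and 458, and the 6 KO tumours (1 to 5 cells) at 61.1 to 6865. The groups overlapped at both days. Against CD8 T cells of the same tumours Gzmb differed by 1.31 (SE 0.45, adjusted p = 0.0697 in edgeR) and did not pass. In the mixed libraries alone, where 1 regulatory T sum with no spread of its own remained, it was higher by 2.40, and nothing is read from that fit. Gzmk was at 0 in all 5 sums and entered the fit through the 213 UMIs of the CD8 T sums, so its call, the 1 member called lower beside 4.78% of 2237 genes, carries no weight. At 3 counts over these 5 sums the floor of Gzmk was 18.0 CPM. Against that floor Gzmk was at least 4.18-fold lower than the 75.4 of CD8 T cells. The latter was pooled over all 23 tumours with a CD8 T sum, not over the same 5 tumours. Prf1 gave 4 UMIs over these 5 tumours and Gzmd, Gzme, Gzmf and Gzmg gave none. Gzma gave 5 UMIs, all in 1 tumour.

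In control tumours the Ptprc-negative share of Gzme lay mostly in cells rich in fibroblast genes. Because Gzme was seen there, Ptprc-negative cells with at least 10 UMIs of Dcn, which encodes the matrix proteoglycan decorin, were pooled after the values had been seen. They were 2.24% of Ptprc-negative cells (1358 of 60675) and held 83.0% of the Gzme UMIs and 60.2% of the Gzmd UMIs of that compartment, but 4.17% of Gzmf and 2.17% of Gzmg. The shares are those of the controls, where such cells held 462 of 519 Gzme and 188 of 256 Gzmd UMIs, while in KO tumours they held 10 of 50 and 1 of 58. Such cells carried the collagen gene Col1a1 at 7666 CPM in the controls and 6432 in the KO samples. The 504 KO cells included 13 of line 24 at day 0. The threshold is a range and not a cell type, and 147 cells lay between 8 and 11 Dcn UMIs.

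In the 854 control cells rich in Dcn, Gzme stood at 64.8 CPM (Poisson 95% interval 59.0 to 71.0) and Gzmd at 26.4 (22.7 to 30.4). These intervals over summed cells cover counting error only and are far narrower than the spread over tumours. The neighbouring granzymes were near 0 there, with 4 UMIs of Gzmf, 1 of Gzmg and 16 of Gzmc, and Prf1 gave none. A Gzme UMI was found in 15.6% of these cells, against 0.185% of the other control Ptprc-negative cells (median depth 7600 and 6512 UMIs). Mcpt8, a protease gene known from basophils that lies on the same strand beyond Ctsg from Gzme, stood at 30.4, while Ctsg, between them, gave no UMI. Over both groups, Dcn-rich cells held only 220 of the 702 Mcpt8 UMIs of Ptprc-negative cells (31.3%). In the other Ptprc-negative cells Mcpt8 stood at 0.677 in the control and 1.395 in the KO samples. In NK cells Mcpt8 was at 1.68 in the controls. Gzme was 2.46 times as abundant as Gzmd by UMIs in the control Dcn-rich cells and 0.386 times in the control NK cells.

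By tumour, Gzme in Dcn-rich cells ranged from 0 to 179 CPM in the 18 control tumours (median 43.0), and 17 were above 0. The 15 KO tumours ranged from 0 to 9.49 with a median of 0. All 6 tumours of line 24 were at 0 for Gzme and Gzmd. Gzmd ranged from 0 to 74.4 (median 17.8) in the control and from 0 to 1.19 in the KO tumours. In the mixed libraries Gzme was at 18.8 to 155 in the 6 control and at 0 to 8.91 in the 5 KO tumours. Control tumours of 0 and 7.95 fell within the KO range, and the other 16 lay above it.

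The Dcn-rich cells themselves differed between the groups. Dcn stood at 5192 and 3633 CPM in control and KO cells and the surface gene Thy1 at 1366 and 671. With cells taken by at least 20 UMIs of Col1a1, Col1a2 and Dcn together, Gzme stood at 56.3 in control and 1.44 in KO cells. The part of these differences in the Gzme levels was not tested. By day, Gzme was at 22.8, 109.6 and 81.1 in line 15 and at 61.6, 60.5 and 50.3 in line 18 at days 6, 10 and 16.

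**Figure D5:**
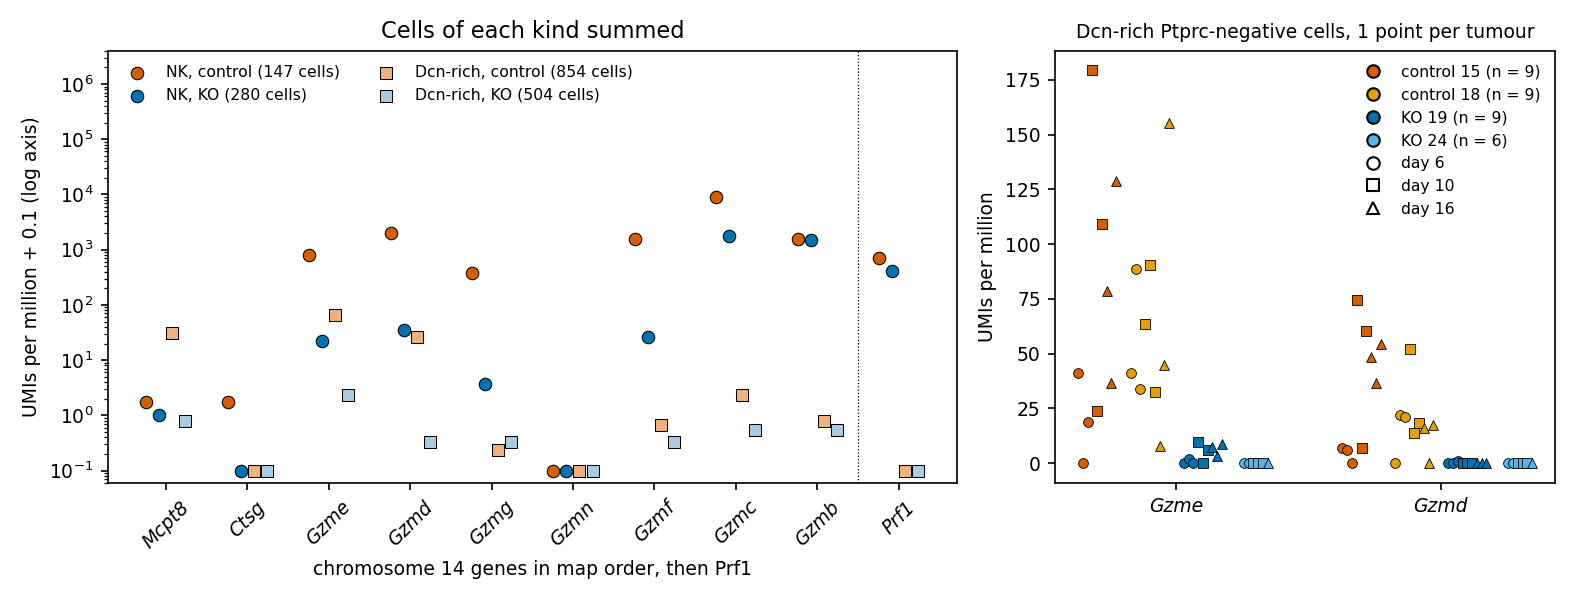
Left, CPM plus 0.1 (log y axis) of 9 chromosome 14 genes in map order and Prf1 in NK cells (circles) and Dcn-rich Ptprc-negative cells (squares), control and KO cells summed by kind. Right, CPM of Gzme and Gzmd in Dcn-rich cells, 1 point per tumour by line and day. In control NK cells the signal spans Gzme to Gzmb, in control Dcn-rich cells it is at Mcpt8, Gzme and Gzmd.

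Other genes of the granule pathway were counted from lists that use no member. Genes that did not meet the low-count filter in each of the classes compared, taken alone, are named as such, and their calls carry no weight. Between NK and CD8 T cells, where 4.47% of all genes were called higher and 3.71% lower, 3 of 9 granule genes were higher in NK cells in edgeR, namely Serpinb9 (1.86), which encodes an inhibitor of granzyme B, Serpinb6b (1.35), a serpin, and Srgn (0.46), which encodes the granule proteoglycan serglycin. Of 7 regulators, Runx3 (1.13) and Id2 (0.98) were higher. Eomes (2.09) was called higher but met the filter in NK sums alone, and Batf (-1.07) was called lower but met it in neither class. The IL-2 and IL-15 receptor chains Il2rb (1.59) and Il2rg (0.51) were higher, 2 of 3 tested, and of 5 cytokine and ligand genes only the chemokine gene Xcl1 (2.04) was. The median was 0.42 over the granule list, 0.49 over the regulators, 0.51 over the receptors and 0.98 over the cytokines and ligands, beside -0.02 over all genes tested.

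CD4 T cells differed from CD8 T cells in both directions within the granule list. Of all genes 5.27% were called higher and 6.03% lower in CD4 T cells (11.3% in either direction). Nkg7 (-1.14), Ctsw (-1.03) and Cst7 (-1.15), genes of cytotoxic granule proteins and a cystatin, were lower, and Srgn (0.83) and Stx11 (1.58), a syntaxin of granule release, were higher, 5 of 9 in all. Stx11 met the filter in no class alone, only over the classes together. Of 5 cytokine and ligand genes Ifng (1.66), the gene of interferon gamma, was higher and the chemokine genes Ccl5 (-2.72) and Xcl1 (-2.54) lower. Of 7 regulators the transcription factor genes Batf (1.40), Bhlhe40 (0.95) and Id2 (0.61) were called higher and Eomes (-2.83) and Tcf7 (-2.33) lower. Of 3 receptor chains Il2ra (1.05) was called higher. Eomes and Tcf7 met the filter in NK sums alone and Il2ra in regulatory T sums alone. Batf met it in CD4 T but not CD8 T sums, and Cst7 and Xcl1 in CD8 T but not CD4 T sums. These calls carry no weight. The medians were -0.06, -0.61, 0.13 and 0.35 over the granule, cytokine, regulator and receptor lists, beside 0.02 over all genes.

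In regulatory T cells 4 of 9 granule genes were called against CD8 T cells, with Nkg7 (-2.84) and Ctsw (-2.79) lower and Srgn (1.34) and Stx11 (1.85) higher, beside 3.4% of all genes called higher and 4.78% lower. Of 5 cytokine and ligand genes Ccl5 (-2.33) and Xcl1 (-4.82) were lower. Of 7 regulators Batf (1.78) was called higher. Batf met the filter in regulatory T but not CD8 T sums, Ctsw and Xcl1 in CD8 T but not regulatory T sums, and Stx11 in no class alone. These calls carry no weight. Tcf7 was called lower, but at 0 in all 5 regulatory T sums its call carries no weight. Of 3 receptor chains Il2ra (3.50), the high-affinity IL-2 receptor chain known from regulatory T cells, was called higher but met the filter in regulatory T sums alone. The medians were -0.14, -1.85, -0.19 and 0.62 over the same 4 lists, beside -0.03 over all genes. Between days, between lines of a group and for the course, 0 genes of the 4 lists were called in edgeR. In the contrast that the members came from, 1 granule gene (Cst7, -0.95, NK cells) and 1 receptor gene (Il2rb, 1.28, CD8 T cells) passed in edgeR, given as a description.

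Genes that followed the members across tumours were named by Spearman's rho over 23 CD8 T sums and 1608 genes, as a description of sums that share depth and library. Those nearest to Gzmb were Selenow (0.69), Ubb (0.68), Srgn (0.66), Cxcr6 (0.66) and Tagln2 (0.63). For Gzmk they were Lamtor2 (0.69), Tmem234 (0.68), Lypla2 (0.64), Ptprcap (0.63) and Ifi27 (0.58). The sum of Gzmc to Gzmg and Gzmn was followed by Eif1 (0.61), Prr13 (0.60), Idh3b (0.59), Prkar1a (0.58) and Glrx3 (0.55). Over 16 NK sums, added after the data were seen, that sum was followed by Thy1 (0.87), Rpl3 (0.84), Vasp (0.83), Wdr1 (0.81) and Actb (0.80).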

How the data were processed

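Dissociated tumour cells were read as single cells with hashtags. The count values are raw UMI counts per gene and cell as the authors deposited them, made with Cell Ranger 6.0.0 on build mm10 per the submitters' processing notes. The sheet that pairs hashtags with tumours lists 47 hashtags.

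A barcode was kept with 300 or more genes detected and no more than 15% of its counts from mitochondrial genes (163866 of 176381 barcodes). Hashtags under 0.1% of a library's hashtag counts were dropped, and HTODemux (Seurat 5.3.0) gave 100459 single cells, with doublets of 2 hashtags removed; doublets within a tumour were not called. UMIs of gated cells were summed per tumour, with at least 10 cells each, and tested in edgeR 4.0.16 (R 4.3.3, quasi-likelihood test, TMM, filterByExpr, Benjamini-Hochberg adjustment over all genes tested, threshold 0.05). DESeq2 1.42.0 was an alternative. The SE beside an edgeR difference is its absolute log2 value divided by the square root of the quasi-likelihood F. It is derived from the test and was not estimated separately. The replicate letter as a block was added after seeing the data. KO and control were fitted with day, days with line, lines with day, and classes with the tumour as a block. The script was tested on simulated data. The filter of the class fit was also applied to each class alone. Levels are CPM of gene UMIs. Gene positions come from the GRCm38 annotation, and upstream sequences from RefSeq (Biopython 1.88). The members and all gene lists were chosen with earlier results of these data known. All members are named. Of the lists, genes past the threshold are named, and the 5 genes with the highest Spearman correlation to Gzmb, Gzmk and the summed cluster. For a count of 0, the floor is 3 counts. The WT tumours entered no comparison.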

Additional observations from a re-analysis of the deposited data

Results flagged for a closer look

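In 3 of 21 groups of 4 to 10 tumours, 1 tumour stood apart from the rest by Dixon's criterion, which chance meets in about 1 group in 20. All were of KO line 19. Gzmb in CD4 T cells stood at 1236 CPM in a day 6 tumour (25 cells, 114 UMIs), while the others ranged from 52.1 to 192. It was the only day 6 tumour with at least 10 such cells, and the others were of days 10 and 16. The other day 6 tumours of the line stood at 342 (9 cells) and 429 (7 cells), so day and tumour cannot be told apart here. Gzmc in CD4 T cells stood at 875 in a day 16 tumour (15 cells, 33 UMIs), against 0 to 95.9. Gzmk in CD8 T cells stood at 481 in a day 10 tumour (17 cells, 23 UMIs), against 0 to 108.

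Ptprc-negative cells, outside the lymphocyte classes, held members above the level of the same line at day 0, whose samples the labels do not describe as culture or tissue. In line 24 at day 6 (1781 cells), Gzma stood at 22.8 CPM against 1.02 at day 0, Gzmb at 12.9 against 2.27, Gzmc at 6.19 against 0.0925 and Prf1 at 1.38 against 0.0463. In the 1735 of these cells not rich in Dcn, the lymphocyte gene Nkg7 stood at 17.5 against 1.53 at day 0 and Srgn at 126 against 6.64, with a median depth of 2941 against 5788 UMIs. A UMI was found in 2.41% of the Ptprc-negative cells for Gzma, 3.42% for Gzmb, 0.674% for Gzmc and 0.449% for Prf1, against 1.37%, 3.42%, 0% and 0.685% of the 146 macrophages of the same line and day, so Gzmb and Prf1 were not above that background. In line 19 at day 6, Gzma stood at 2.16 against 0.534, with a UMI in 0.676% of cells against 0.161% of macrophages. Nkg7 stood at 1.40 against 0.602 there and Srgn at 51.6 against 2.14 in cells not rich in Dcn. In line 15, Gzmd stood at 2.76 against 0.113 and Gzme at 5.39 against 0.452 at day 10, and Gzmc at 1.19 against 0.0566 at day 16. Of the day 10 UMIs, 68 of 82 for Gzmd and 151 of 160 for Gzme lay in the 135 cells rich in Dcn. A UMI was found in 0.925% of all Ptprc-negative cells for Gzmd and 1.31% for Gzme at day 10, against 0.358% and 0% of 559 macrophages. For Gzmc at day 16 it was 0.865% against 1.05%, not above that background. Srgn stood at 28.7 at day 10 and 27.3 at day 16 against 0.566 at day 0 in the cells not rich in Dcn, with median depths of 8630, 7781 and 17100 UMIs. The part of these in the levels was not tested.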

How the results depend on the processing

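Counts of members called in edgeR moved by over 1.5 times as follows. For KO minus control in NK cells, given as a description (4 members), it was 0 with the stricter gate and 0 with at least 20 cells a tumour, and 0 to 5 with each line left out (0 without line 18, 1 without line 24). For day 16 minus day 6 in CD8 T cells (0) it was 1 with no filter on low counts, and 0 to 1 with a line left out (1, Gzma, without line 24). For the days in NK cells (0) it was 1 in DESeq2, 3 with no filter, and 0 to 1 with a line left out (1 without line 19 and 1 without line 24). With no filter, the course over days gave 1 and line 24 minus 19 gave 1, against 0. For CD4 T minus CD8 T cells (4) it was 2 with the stricter gate, 2 with at least 20 cells, 0 in the mixed libraries alone, and 2 to 4 with a line left out (2 without line 19 and 2 without line 24). For regulatory T minus CD8 T cells (1) it was 2 with RLE scaling, 3 with no filter, 2 with the other hashtag call, 0 with the stricter gate, 0 with the stricter cell filter, and 0 to 1 with a line left out (0 without line 19 and 0 without line 24). The cause was not tested, beyond the smaller number of cells or tumours that these settings leave. NK minus CD8 T gave 4 to 9 members against 6. Of 733 member values under the alternatives, 668 stayed on their side of the threshold, 41 lost the call and 24 gained it, and none that was called in either fit changed direction (values not called could change sign).

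Over all genes the number called also moved: 0 to 71 against 29 for KO minus control in CD8 T cells, 0 to 60 against 17 in NK cells and 0 to 41 against 0 in CD4 T cells. It was 0 to 19 and 0 to 26 against 0 for the days in CD8 T and NK cells, 0 to 11 against 0 for the course, 0 to 2 against 0 for line 18 minus 15, and 0 to 90 against 21 for line 24 minus 19. It was 68 to 286 against 183 for NK, 104 to 263 against 253 for CD4 T and 14 to 231 against 183 for regulatory T cells, each minus CD8 T cells.

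The hashtag sheet gives the tumours of a line and day a replicate letter, which the lines share, with C in the mixed libraries. Added after seeing the data, a fit with that letter as a replicate block called 0 members in CD8 T and CD4 T cells and 4 in NK cells for KO minus control, without Gzmc, and 0 for the days, the course and both line comparisons. Over all genes it called 10 against 17 for KO minus control in NK cells. In CD8 T cells, tumours of 1 day and letter in opposite groups did not deviate together. The median correlation was -0.19 over 11 pairs (1 over 0.1), against -0.16 over 24 pairs of different letters. In NK cells it was -0.14 over 4 pairs (1 over 0.1), against -0.20 over 14 of different letters (0 over 0.1). In CD4 T cells it was -0.18 over 5 pairs, against -0.19 over 12. So few pairs cannot decide the question in these 2 classes. The labels say nothing of what the letters share. The class comparisons carry the tumour as a block. Not run, for too few tumours, were the KO fit in regulatory T cells and, for some comparisons in CD4 T, NK and regulatory T cells and the course, the stricter gate, at least 20 cells, the mixed libraries alone, library as a term, or the course without line 18. Few gated cells per tumour limit all values of the clustered granzymes.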

Other observations

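The 3 WT tumours, which the labels put in no group, are given as single values in CPM. In NK cells of the day 6 tumour (9 cells) Gzma stood at 3569, Gzmb at 4268, Gzmc at 6181, Gzmd at 147, Gzme at 110 and Prf1 at 1104. In that of day 10 (4 cells) Gzma stood at 3991, Gzmb at 1530, Gzmc at 7050, Gzmf at 1663 and Prf1 at 665, with Gzmd and Gzme at 0. In that of day 16 (7 cells) Gzma stood at 1450, Gzmb at 290, Gzmc at 2321 and Prf1 at 26.4, with Gzmd, Gzme and Gzmf at 0.

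In CD8 T cells of the WT tumours Gzmb stood at 1570 (7 cells), 1046 (13 cells) and 691 (109 cells) at days 6, 10 and 16. In regulatory T cells it stood at 491 (3 cells), 764 (2 cells) and 424 (6 cells), and in CD4 T cells at 906 (6 cells), 509 (14 cells) and 43.8 (8 cells).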
